A study of Homo sapiens with 6 samples.

Results

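A stretch of band 11q13 on chromosome 11 holds ANO1, a calcium-activated chloride channel, together with the cyclin D1 gene CCND1 and the genes CPT1A, FGF19, FADD, PPFIA1, CTTN and SHANK2. These 8 genes were followed on every probe set whose annotation names exactly 1 of them. A probe set is a group of short array probes that together give 1 value for a transcript. This gave 27 probe sets of 49293 that are not controls, or 8 of 18265 genes. The set was chosen by the log2 difference of ANO1 between the 6 arrays described here and by position around it, with the values of all members already known, so their differences are given as a description, without a test. One further probe set is annotated to CPT1A and a second gene together and was left out.

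The cells were A549, an established human line from a lung adenocarcinoma, bulk cultures of which received a lentivirus with a short hairpin RNA. One group carried the hairpin against TIGD1, one of the human genes descended from pogo transposons (shTIGD1, 3 arrays). The other carried a negative control hairpin (shControl, 3 arrays), with the same line, medium and virus type. A single hairpin was used against TIGD1, and the labels name no second one. The 2 target sequences define the groups and are shown as the labels give them.
shTIGD1: ctgctaacacaacatccat
shNC: ttctccgaacgtgtcacgt

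The labels do not say that the arrays of a group came from separate cultures, and p-values cover only the variation among these arrays, part of which may be technical. In bulk RNA, fewer cells of a type and less RNA per cell cannot be told apart. The deposited values were log2 signals, on which a difference of 1 is a doubling, and array medians lay between 6.27 and 6.28. TIGD1 itself read 6.88, 6.84 and 6.86 on the shTIGD1 arrays, against 6.96, 6.93 and 6.85 on the shControl arrays. The groups overlapped, with a log2 difference of -0.06 (SE 0.04, limma adjusted p = 0.427), which became 0.15 and 0.28 under the 2 control-based scalings described below. It was thus not called lower, and directions below are therefore those of the arrays labelled shTIGD1 relative to the arrays labelled shControl. All 9 epithelial and A549-type markers, KRT8, KRT18 and EPCAM among them, were above the dim level defined below (8.07 to 14.17). Of the other cells' markers, 1 of 4 immune, 1 of 4 endothelial and 2 of 5 fibroblast genes were above it, the highest at 8.21 (immune). Summed over the 9 epithelial markers, the log2 signals ran from 115.8 to 116.1 on shTIGD1 and from 114.8 to 115.0 on shControl arrays, which do not overlap, and 1 of the 9 passed as higher. The sums overlapped for the immune markers (19.0 to 19.2 on shTIGD1 and 19.1 to 19.5 on shControl arrays), the endothelial (19.7 to 20.3 and 20.2 to 20.5) and the fibroblast markers (23.8 to 24.2 and 24.0 to 24.9), and 1 fibroblast marker passed as lower. The part of these marker levels in the values below was not tested.

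Band 11q13 is known as a segment that is gained as a block in squamous, breast and other carcinomas, with CCND1, FADD, CTTN and ANO1 often gained together. Cyclin D1 joins CDK4 or CDK6 to phosphorylate RB and release the cell from G1. ANO1 passes chloride ions when cytosolic calcium rises and is also used as a tumour marker. FADD is the adaptor that links death receptors to caspase-8, and cortactin, from CTTN, holds branched actin together at the cell edge. In the order of the GRCh38.p14 annotation the genes are CPT1A, CCND1, FGF19, ANO1, FADD, PPFIA1, CTTN and SHANK2.

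ANO1 and FADD are adjacent members with probe sets that read higher on shTIGD1 arrays, and the 250 bases before their annotated starts are shown for that reason. Both sequences come from RefSeq, build GRCh38.p14, plus strand. The ANO1 window is chr11:69985657-69985906 and the FADD window chr11:70203046-70203295, and capitals mark matches to the GC box GGGCGG on either strand.
ANO1: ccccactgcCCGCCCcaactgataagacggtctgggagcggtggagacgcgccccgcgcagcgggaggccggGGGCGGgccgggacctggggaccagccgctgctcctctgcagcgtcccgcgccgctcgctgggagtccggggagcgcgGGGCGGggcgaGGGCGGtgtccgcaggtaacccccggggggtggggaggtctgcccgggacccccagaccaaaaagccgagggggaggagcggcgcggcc
FADD: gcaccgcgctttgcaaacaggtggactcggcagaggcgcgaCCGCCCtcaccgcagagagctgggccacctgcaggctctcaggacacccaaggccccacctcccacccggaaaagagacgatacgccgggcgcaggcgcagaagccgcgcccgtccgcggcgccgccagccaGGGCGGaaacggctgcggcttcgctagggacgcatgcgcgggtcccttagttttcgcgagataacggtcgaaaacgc

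The GC box matched 4 times before ANO1 and 2 times before FADD, and 42.6% of 35116 annotated windows of this length hold at least 1 match. The letters of a TATA box (TATAAA, in 10.7% of windows), CCAAT (32.0%), an E-box (CACGTG, 6.34%) and an AP-1 motif (TGANTCA, 6.57%) were in neither window on either strand. The ANO1 window is 78% G and C, at the 94.8th percentile of all windows, and the FADD window 68.8%. PPFIA1 had 5 GC boxes and 1 CCAAT in its window, and CPT1A, at 44.4% G and C, had no match to any of the 5 motifs. No window was available for CCND1, FGF19, CTTN and SHANK2, so the bases before these genes were not searched for motifs.

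Among the 8 genes, CCND1 was lower on all its probe sets, CTTN lower on its brighter ones, and FADD and SHANK2 higher on their brighter ones. ANO1 was divided, with 1 probe set 2.60 higher on the log2 scale and its brightest probe set 0.02 higher. PPFIA1, CPT1A and FGF19 differed little or in both directions. Of the 27 probe sets, 7 passed a limma adjusted p of 0.05 as higher and 6 as lower, where 22% of all probe sets passed (11.5% as higher and 10.6% as lower). The groups did not overlap on 16 of the 27 (9 higher and 7 lower), against 40.9% of all probe sets (19.4% and 21.5%). These counts are descriptive, since the genes were chosen with this contrast in view. Leaving out 1 array gave 3 to 6 higher and 4 to 6 lower member probe sets. Without shTIGD1 replicate 1 the 7 higher counts became 4, and without shTIGD1 replicate 3 they became 3. Over all probe sets the higher count also fell in these fits, from 5648 to 3700 and 3857. Levelling the arrays on the hybridization controls raised every log2 difference by 0.21, and levelling on the poly-A controls by 0.33, which shifted the median of all probe sets from -0.02 to 0.19 and 0.31. Differences below are as deposited.

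**Figure D1:**
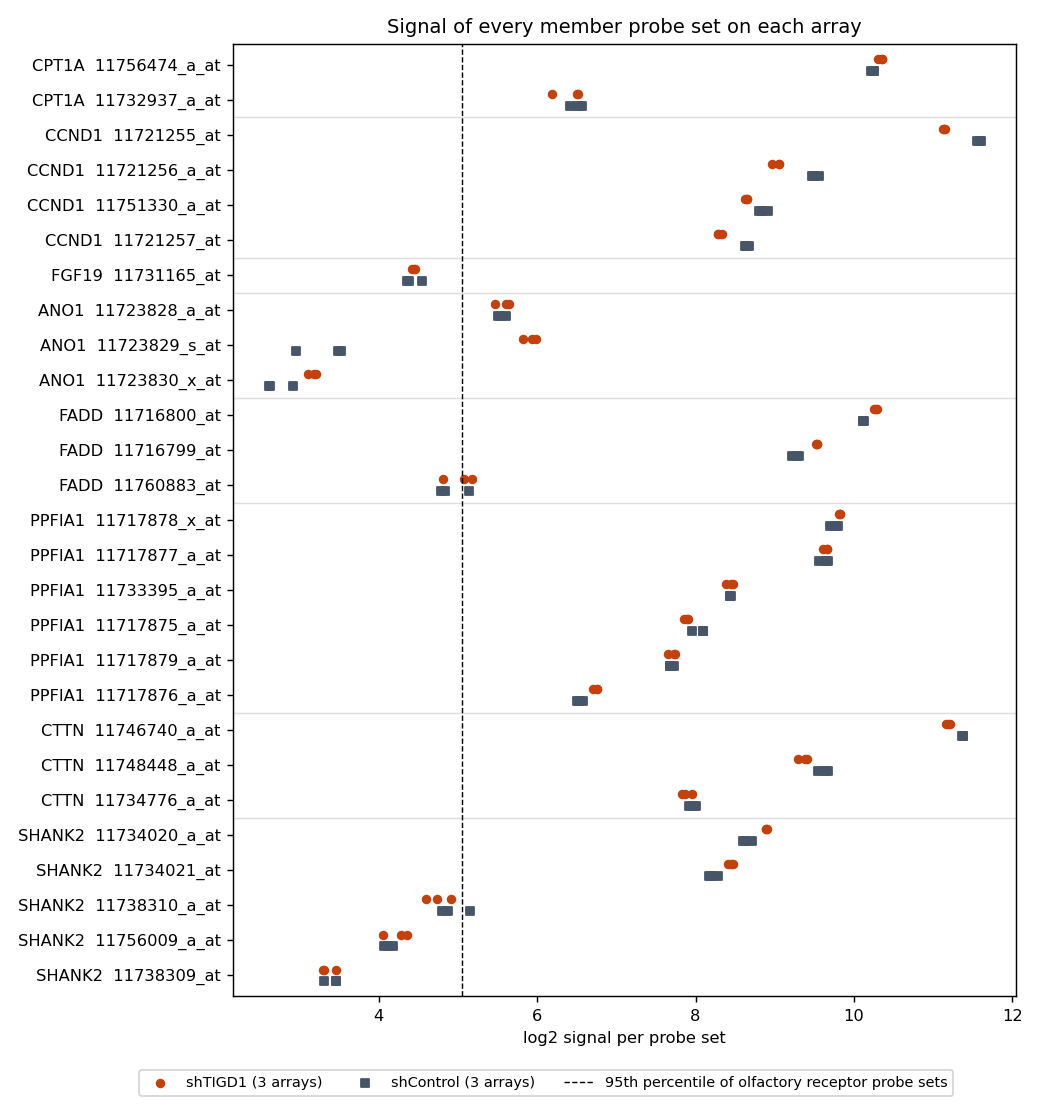
Log2 signal (horizontal axis) of each of the 27 member probe sets on the 3 shTIGD1 arrays (circles) and 3 shControl arrays (squares), with genes in chromosome order. The dashed line is the 95th percentile of 360 olfactory receptor probe sets, 5.04, and the ANO1 probe set 11723829_s_at is the only one of the 27 whose groups lie wholly on either side of it.

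To judge dim signals, the 360 probe sets of olfactory receptors, genes mostly silent outside the nose, were taken as a dim set. Their median log2 signal was 3.84 and their 95th percentile 5.04, and 35.2% of all probe sets lay below 5.04. Of the member probe sets, 6 had both group means below it. They were the FGF19 probe set, 1 of ANO1, 1 of FADD and 3 of SHANK2.

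ANO1 had 3 probe sets, which did not move alike. Probe set 11723829_s_at read 5.99, 5.94 and 5.82 on the shTIGD1 arrays, against 3.48, 2.95 and 3.52 on the shControl arrays. Every shTIGD1 array was thus above every shControl array, with a gap of 2.30 between the nearest values, and the shControl arrays all lay in the range of the dim set. The shTIGD1 mean was 5.91 ± 0.09 and the shControl mean 3.32 ± 0.32 (SD over 3 arrays), 2.60 apart on the log2 scale (SE 0.15, 95% interval 2.24 to 2.96). Because the shControl mean was under the dim level, the ratio is given as at least 1.83-fold higher, the shTIGD1 mean against the level of 5.04.

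The brightest ANO1 probe set, 11723828_a_at, read 5.47, 5.61 and 5.64 on the shTIGD1 arrays and 5.51, 5.61 and 5.54 on the shControl arrays. These values overlapped, and the log2 difference was 0.02 (SE 0.06, interval -0.12 to 0.16). The dimmest, 11723830_x_at, read 3.18, 3.10 and 3.20 on the shTIGD1 arrays, against 2.91, 2.62 and 2.61 on the shControl arrays. Its groups were apart by a log2 difference of 0.45 (SE 0.09), but all 6 values lay below the dim level, so no fold is given. It left the threshold without shTIGD1 replicate 1 or 3, with differences from 0.39 to 0.55 over all removals of 1 array. The gene's log2 differences thus spanned 2.58, from 0.02 to 2.60. In the naming of this array maker, the suffix _s_at marks probes shared by transcripts of more than 1 gene or form, and _x_at marks some probes with similarity to other sequences. Suffix _s_at was carried by 13.1% of all probe sets.

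**Figure D2:**
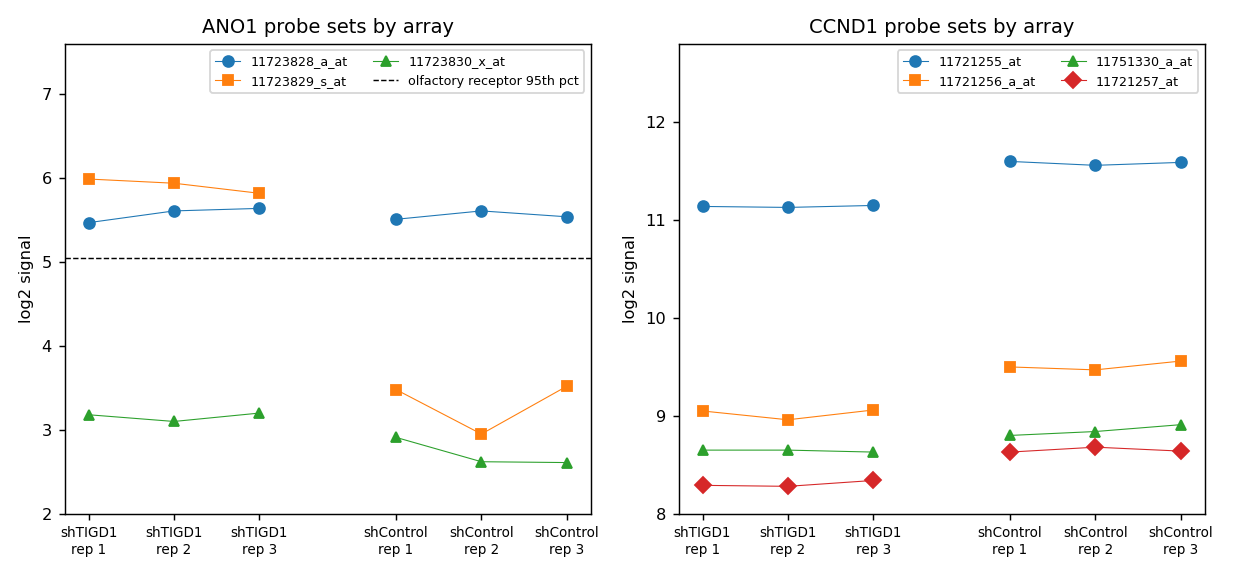
Log2 signal on each array (vertical axis) for the 3 ANO1 probe sets (left) and the 4 CCND1 probe sets (right), the shTIGD1 arrays left of the shControl arrays; lines join arrays of 1 group and the vertical axes do not start at 0. One ANO1 probe set lies at 5.82 to 5.99 on shTIGD1 and at 2.95 to 3.52 on shControl arrays while the brightest does not separate, and as deposited all 4 CCND1 probe sets are lower on shTIGD1 arrays (1 of them turns to 0.00 with hybridization control levelling).

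By Euclidean distance between deviations from the mean over the 6 arrays, the nearest probe set to ANO1 11723829_s_at was one of SERP1 (0.69), followed by others of SERP1 and CDKN2A. This search was added after the values had been seen, and it rests in part on shControl values below the dim level. The distance takes in the group difference itself, so nearness is no separate support for that difference. Only 3 probe sets had a log2 difference of at least 2, 1 each of CDKN2A (3.42), ANO1 (2.60) and SERP1 (2.23). For the brightest ANO1 probe set, the nearest genes with a mean of at least 6 were ZNF654, FOXA1, ZFYVE26, LRRC45 and ADGRV1 (distances 0.03 to 0.06), with log2 differences from 0.00 to 0.04.

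CCND1, which encodes the G1 cyclin D1, had 4 probe sets, all lower on the shTIGD1 arrays as deposited. The brightest, 11721255_at, read 11.14, 11.13 and 11.15 on the shTIGD1 arrays, against 11.60, 11.56 and 11.59 on the shControl arrays. No shTIGD1 array reached a shControl array on any of the 4. The brightest averaged 11.14 ± 0.01 on shTIGD1 and 11.58 ± 0.02 on shControl arrays (SD over 3 arrays), and its log2 difference was -0.44 (SE 0.04), or -26.4%. Differences on the other 3 were -0.49 (SE 0.05) for 11721256_a_at, -0.34 (SE 0.04) for 11721257_at and -0.20 (SE 0.04) for 11751330_a_at. With hybridization control levelling they stood at -0.23 for the brightest, -0.28, -0.14 and 0.00, and with poly-A control levelling at -0.11, -0.16, -0.01 and 0.13. The last probe set also left the threshold when any 1 of the shTIGD1 arrays was removed, with log2 differences from -0.23 to -0.17 over all removals. The genes nearest to the brightest CCND1 probe set over the 6 arrays were GM2A, SLC43A2, NAGLU, MIS18A and COLGALT1 (distances 0.05 to 0.06). Their log2 differences ran from -0.46 to -0.42, and this distance too takes in the group difference.

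FGF19, an intestinal hormone that acts through FGFR4 and the co-receptor beta-klotho on bile acid synthesis, was read by 1 probe set. It gave 4.44, 4.45 and 4.42 on the shTIGD1 arrays, and 4.55, 4.38 and 4.36 on the shControl arrays. All 6 values lay below the dim level and overlapped, with a log2 difference of 0.01 (SE 0.06). A difference in FGF19 was not detectable at this signal.

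FADD was higher on its 2 bright probe sets. The brightest, 11716800_at, read 10.28, 10.29 and 10.26 on the shTIGD1 arrays, against 10.12, 10.11 and 10.13 on the shControl arrays, and 11716799_at read 9.54, 9.52 and 9.53 against 9.31, 9.28 and 9.22. Both separated the groups, by log2 differences of 0.16 (SE 0.04) and 0.26 (SE 0.04), or 11.6% and 19.5%. The smaller of these left the threshold when any 1 of the 6 arrays was removed, with differences from 0.15 to 0.17. The third probe set, at 4.81 to 5.17 on the shTIGD1 and 4.79 to 5.14 on the shControl arrays, lay around the dim level and overlapped (0.09, SE 0.12).

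PPFIA1 encodes liprin-alpha-1, a scaffold of focal adhesions and vesicle sites that binds LAR-type phosphatases. Its 6 probe sets gave log2 differences from -0.17 to 0.19, with a median of 0.01. The brightest, 11717878_x_at, read 9.83, 9.81 and 9.82 on the shTIGD1 arrays and 9.70, 9.80 and 9.76 on the shControl arrays (0.06, SE 0.04). Probe sets 11717876_a_at (0.19, SE 0.04) and 11717875_a_at (-0.17, SE 0.05) each separated the groups, in opposite directions as deposited. With hybridization control levelling this pair stood at 0.40 and 0.04, and with poly-A control levelling at 0.53 and 0.16. As deposited, 11717876_a_at was past the threshold and left it without shTIGD1 replicate 2 or 3 or shControl replicate 1 or 3 (0.17 to 0.22). When single arrays were removed, 11717875_a_at passed only without shControl replicate 1 (-0.22 to -0.14). No direction is given for the gene.

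CTTN was lower on its 2 brighter probe sets as deposited. The brightest, 11746740_a_at, read 11.19, 11.17 and 11.21 on the shTIGD1 arrays, against 11.36, 11.38 and 11.38 on the shControl arrays. Probe set 11748448_a_at read 9.38, 9.30 and 9.41 against 9.67, 9.55 and 9.63. The groups were apart on both, by -0.19 (SE 0.04) and -0.25 (SE 0.05), while the third probe set overlapped (-0.08, SE 0.05). Probe set 11748448_a_at left the threshold without shTIGD1 replicate 1 or 2 or shControl replicate 1 or 3 (-0.29 to -0.22). With hybridization control levelling the brighter pair stood at 0.02 and -0.04, and with poly-A control levelling at 0.15 and 0.08, so the direction of CTTN depends on the scaling.

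SHANK2, a scaffold of synapses and of epithelial cell edges that binds cortactin, had 2 probe sets well above the dim level and 3 below it. The brightest, 11734020_a_at, read 8.90, 8.89 and 8.89 on the shTIGD1 arrays, against 8.60, 8.71 and 8.63 on the shControl arrays. Probe set 11734021_at read 8.45, 8.41 and 8.47 against 8.19, 8.28 and 8.17. Both separated the groups, with log2 differences of 0.24 (SE 0.04) and 0.23 (SE 0.05), or 18.4% and 17.5%. The second left the threshold without shTIGD1 replicate 1 or 3 (0.21 to 0.26). The 3 dim ones overlapped and ran from -0.19 to 0.10.

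CPT1A, the outer-membrane carnitine palmitoyltransferase that admits long-chain fatty acids to oxidation, had 2 probe sets. The brighter, 11756474_a_at, read 10.35, 10.31 and 10.36 on the shTIGD1 arrays, against 10.22, 10.25 and 10.25 on the shControl arrays. Its groups did not overlap, with a log2 difference of 0.10 (SE 0.04) that was not past the threshold. The dimmer, 11732937_a_at, overlapped (-0.09, SE 0.09), with shTIGD1 replicate 2 the lowest at 6.19.

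**Figure D3:**
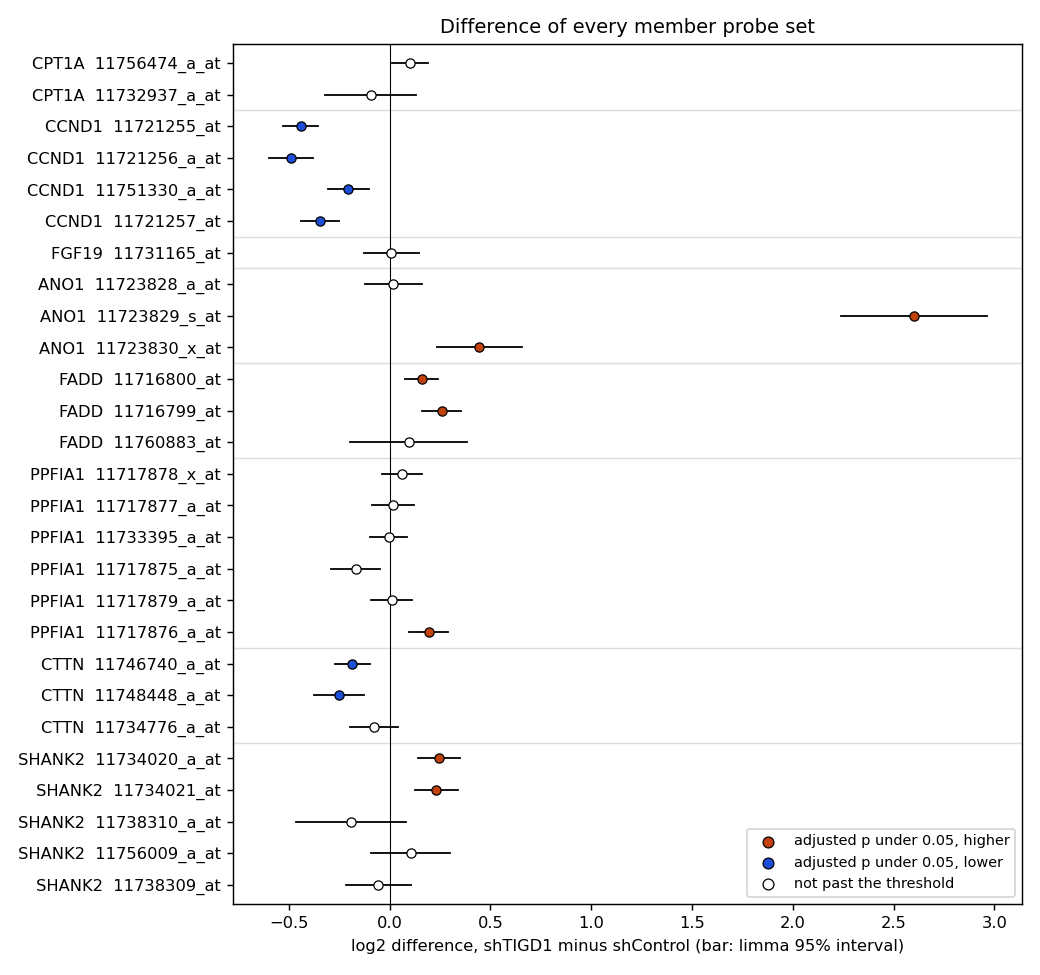
Log2 difference, shTIGD1 minus shControl (horizontal axis, point) with its limma 95% interval (bar), for each member probe set as deposited; filled points passed a limma adjusted p of 0.05. The ANO1 probe set at 2.60 stands apart from the other 26, which lie between -0.49 and 0.45, and the 4 CCND1 points are left of 0 (under hybridization control levelling the least of them, 11751330_a_at, is at 0.00).

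The brightest probe set of a gene is the one with the highest mean over all 6 arrays. Taking the brightest probe set of each gene, the members ran from -0.44 for CCND1 to 0.24 for SHANK2, with a median of 0.04. ANO1 stands at 0.02 by this choice, which leaves out its probe set 11723829_s_at at 2.60. The absolute log2 difference had a median of 0.17 over the 27 probe sets and 0.10 over all probe sets. SHANK2 was higher beside CTTN, which was lower as deposited.

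The stretch from LRP5 to NADSYN1 holds 15 other genes that were listed and measured. Of these 1 rose and 2 fell, with a median log2 difference of -0.08, where 21.8% of all genes passed by their brightest probe set (9.13% higher, 12.7% lower) and the median was -0.04. NADSYN1, the glutamine-dependent NAD synthetase, read 8.95, 8.88 and 8.96 on the shTIGD1 arrays, against 9.32, 9.23 and 9.22 on the shControl arrays. It fell by 0.32 on the log2 scale (SE 0.05, adjusted p = 0.00443), and both of its probe sets passed. LTO1, a factor for iron-sulfur protein assembly beside CCND1, read 8.64, 8.62 and 8.59 against 8.82, 8.84 and 8.82, and fell by 0.21 (SE 0.04, adjusted p = 0.00854). DHCR7, the last enzyme of cholesterol synthesis, read 9.41, 9.39 and 9.39 against 9.24, 9.20 and 9.13 (0.21, SE 0.04, adjusted p = 0.0157). The DHCR7 call ended without shTIGD1 replicate 1 or 3, with adjusted p up to 0.0585. With hybridization control levelling 5 of the 15 passed as higher and 0 as lower, against 24423 and 827 of all 49293 probe sets. With poly-A control levelling the counts were 9 and 0, against 38178 and 239 of all probe sets. LTO1 and NADSYN1 stood at 0.12 and 0.01 with poly-A control levelling.

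The other 12 genes of the stretch did not pass as deposited. Under at least 1 alternative that kept the deposited scale, TESMIN, IGHMBP2, MRPL21 and MYEOV passed, with adjusted p from 0.0326 to 0.0427. Averaged over its 4 probe sets, PPP6R3 also passed, as higher (0.12, adjusted p = 0.0339), while its brightest probe set was at -0.08. TPCN2, an endolysosomal cation channel, had the widest difference of the 12 as deposited, -0.17 (SE 0.06, adjusted p = 0.0974). Another of its 3 probe sets passed as higher. IGHMBP2, MRGPRF, FGF4 and MYEOV lay between -0.16 and -0.13, TESMIN at 0.15 and PPP6R3 at -0.08. MRPL21, a mitochondrial ribosomal protein gene, was at 0.07, LRP5, a Wnt co-receptor gene, at -0.03 and GAL at 0.03. FGF3 (-0.08) and MRGPRD (0.01) did not pass either, and 3 of the 15 genes were below the dim level in both groups.

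**Figure D4:**
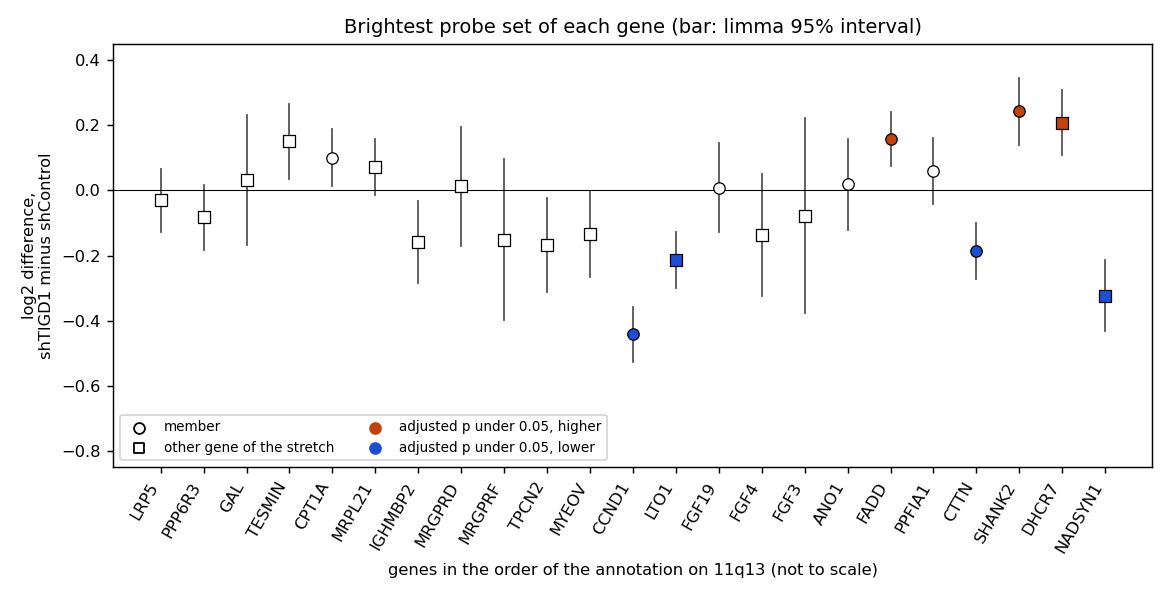
Log2 difference, shTIGD1 minus shControl, as deposited (vertical axis), of the brightest probe set of each of 23 genes in annotation order along 11q13 (horizontal axis, not to scale), with limma 95% intervals as bars; circles are members and squares the 15 other genes. CCND1 (-0.44), LTO1, CTTN and NADSYN1 passed as lower and FADD, SHANK2 and DHCR7 as higher (filled points). Several of the lower genes, CTTN and LTO1 among them, turn to above 0 with poly-A control levelling. ANO1 is shown by 11723828_a_at (0.02) and not by 11723829_s_at (2.60).

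The other anoctamins, channels and scramblases of the same family, were counted next. Of 9, 0 rose and 2 fell (median -0.05), against 9.13% and 12.7% of all genes. At an unadjusted limma p of 0.05 the counts were 1 and 3, against 2537 and 3943 of all 18265 genes. ANO8 read 5.89, 5.94 and 5.97 on the shTIGD1 arrays against 6.29, 6.08 and 6.18 on the shControl arrays, a fall of 0.25 (SE 0.06, adjusted p = 0.0312). ANO3 fell by 0.23 (SE 0.05, adjusted p = 0.0225) at signals below 5.04. Each of these calls held in 1 of the 6 fits that left out an array (adjusted p up to 0.0983 and 0.0723), and with poly-A control levelling both stood above 0, at 0.08 and 0.10. Averaged over its 4 probe sets, ANO3 did not pass (adjusted p = 0.418). Of 16 other chloride channel genes 0 passed in either direction by their brightest probe set (median 0.01). Dimmer probe sets of some of these genes did pass, in both directions. At an unadjusted p of 0.05, 2 of the 16 genes were higher and 2 lower by their brightest probe set, against 2537 and 3943 of all 18265 genes. LRRC8C, a subunit of volume-regulated channels, had the largest difference there (0.36, SE 0.11, adjusted p = 0.0652), and it passed without shTIGD1 replicate 2 (adjusted p = 0.0293, and up to 0.164 without another array), with only probe sets of a mean of at least 5 (adjusted p = 0.0377), with trend and robust settings (adjusted p = 0.00789) and under both control-based scalings.

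Around cyclin D1, 7 of 18 genes of the G1 cyclin, CDK and RB pathway passed, 3 higher and 4 lower (median -0.06), against 9.13% and 12.7% of all genes. The inhibitor CDKN1A fell (-0.63, SE 0.04, adjusted p = 0.000408), as did cyclin E1 from CCNE1 (-0.52, SE 0.05, adjusted p = 0.00128) and the transcription factor E2F2 (-0.37, SE 0.05, adjusted p = 0.00388). CCND3, the D-type cyclin gene on another chromosome, was named after its values were seen. It read 11.15, 11.17 and 11.13 on the shTIGD1 arrays, against 11.51, 11.50 and 11.51 on the shControl arrays, and fell by 0.35 (SE 0.04, adjusted p = 0.00151). Of the 2 CCND3 probe sets 1 passed, and their average was smaller but passed (-0.20, adjusted p = 0.0186). In this list, the genes that passed and are not named were higher. RB1, whose protein is the substrate of the cyclin D kinases, read 6.59, 6.67 and 6.67 against 6.14, 6.42 and 6.18 (0.40, SE 0.08, adjusted p = 0.0159). The RB1 call ended without shTIGD1 replicate 2 or 3 or shControl replicate 3 (adjusted p up to 0.0571). The calls of CDKN1A, CCNE1, E2F2 and CCND3 held in all 6 fits that left out an array. The call of E2F2 ended with hybridization control levelling (-0.16, adjusted p = 0.0558), and those of E2F2 (-0.04, adjusted p = 0.633) and CCND3 (-0.02, adjusted p = 0.759) with poly-A control levelling.

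For FGF19 signalling, 10 genes of receptors and the bile acid axis were measured. Of these 3 rose and 0 fell (median 0.11), against 9.13% and 12.7% of all genes. At an unadjusted limma p of 0.05 the counts were 5 and 1, against 2537 and 3943 of all 18265 genes. FGFR2 read 6.98, 6.99 and 7.12 on the shTIGD1 arrays, against 6.58, 6.54 and 6.47 on the shControl arrays, a rise of 0.50 (SE 0.05, adjusted p = 0.00195). FGFR4, the main receptor of FGF19, read 8.47, 8.49 and 8.55 against 8.31, 8.37 and 8.26 (0.19, SE 0.05, adjusted p = 0.0277), and 4 of its 7 probe sets passed as higher. FGFR3 was at 0.24 (SE 0.06, adjusted p = 0.0377). FGFR2 held in all 6 fits that left out an array, and FGFR3 and FGFR4 each in 1 (adjusted p up to 0.115 and 0.0890). Averaged over its 2 probe sets, FGFR3 did not pass (0.06, adjusted p = 0.383).

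Death receptor signalling, where FADD acts, had 2 genes higher and 3 lower of 11 (median -0.12), against 9.13% and 12.7% of all genes. The receptor gene FAS fell by 1.08 (SE 0.06, adjusted p = 0.000266) and TNFRSF10A fell by 0.20 (SE 0.04, adjusted p = 0.0134). TNFSF10, the ligand TRAIL, read 7.04, 6.98 and 7.13 on the shTIGD1 arrays, against 6.61, 6.69 and 6.34 on the shControl arrays (0.50, SE 0.10, adjusted p = 0.0124). TRADD, another death domain adaptor, rose by 0.19 (SE 0.04, adjusted p = 0.0113) on its brightest probe set, but averaged over its 2 probe sets, of which 1 passed, it did not pass (0.04, adjusted p = 0.585). The TNFRSF10A call ended without shTIGD1 replicate 3 (adjusted p = 0.0503), and with hybridization control levelling this gene stood at 0.00.

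Partners of the scaffold and actin members followed. Of 10 genes of liprins and LAR phosphatases 3 fell and 0 rose (median -0.11), where 12.7% of all genes passed as lower and 9.13% as higher. At an unadjusted limma p of 0.05, 4 were lower and 0 higher, against 3943 and 2537 of all 18265 genes. The 3 that fell were ERC1 (-0.31, SE 0.05, adjusted p = 0.00517), PPFIBP1 (-0.24, SE 0.04, adjusted p = 0.00868) and PPFIA3 (-0.19, SE 0.05, adjusted p = 0.0289). Of the 6 ERC1 probe sets 1 passed, and their average was smaller but passed (-0.15, adjusted p = 0.0186). Averaged over its 6 probe sets, PPFIBP1 did not pass (-0.14, adjusted p = 0.0604). All 3 stood above 0 with poly-A control levelling, at 0.02, 0.09 and 0.15. Among 14 genes of branched actin, 1 rose, WASL (0.17, SE 0.04, adjusted p = 0.0180), and 2 fell, the kinase SRC (-0.23, SE 0.05, adjusted p = 0.0191) and ARPC4 (-0.16, SE 0.04, adjusted p = 0.0348), both of which stood above 0 with poly-A control levelling. SHANK partners had 1 higher and 2 lower of 9. They were DLGAP2 at dim signals (0.23, SE 0.07, adjusted p = 0.0478), HOMER1 (-0.22, SE 0.06, adjusted p = 0.0438) and SHANK3 (-0.22, SE 0.04, adjusted p = 0.00824), the last 2 above 0 with poly-A control levelling.

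In fatty acid oxidation beside CPT1A, 1 of 13 genes rose and 2 fell (median -0.06), against 9.13% and 12.7% of all genes. ACADM, a medium-chain acyl-CoA dehydrogenase, was at 0.16 (SE 0.04, adjusted p = 0.0310). CPT2, the inner-membrane partner of CPT1A, fell by 0.20 (SE 0.05, adjusted p = 0.0361), and ACACA, which makes the malonyl-CoA that inhibits CPT1A, fell by 0.22 (SE 0.05, adjusted p = 0.0176). With poly-A control levelling CPT2 and ACACA stood at 0.13 and 0.11. When single arrays were left out, the calls of PPFIBP1, ERC1, SHANK3, TNFSF10 and TRADD held in all 6 fits. Those of SRC, WASL and ACACA held in 2, those of PPFIA3, DLGAP2, HOMER1, CPT2 and ACADM in 1, and that of ARPC4 in 0, with adjusted p up to 0.118.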

How the data were processed

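Total RNA of 6 samples was turned into biotin-labelled cRNA by in vitro transcription and read on Affymetrix arrays, per the labels. The authors deposited 1 log2 signal for each probe set and array. GCOS and RMA are named in the submitters' processing notes without a version. Base 2 was inferred from how far the signals extend, and every fold rests on it. RMA makes the arrays' distributions alike, so a shift common to most genes would be removed. Scan dates and single probes were not used here, so batches were not tested.

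Of 49395 probe sets, 102 controls were left out. The platform annotation gave 1 symbol to 45336, several to 1275 and none to 2682. Every other probe set was fitted with limma 3.58.1 (lmFit, eBayes) in R 4.3.3, with 3 arrays in each group. Tests were two-sided, p-values were adjusted by Benjamini and Hochberg's method across 49293 probe sets, and the threshold was 0.05. Genes outside the 8 members are given by their brightest probe set, the one with the highest mean over all 6 arrays. Tables were made with Python 3.11.15 and pandas 2.3.3.

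The members and the 10 gene lists (125 of 133 genes matched) were chosen with earlier results of these data known. Named genes are all members, TIGD1, the listed 11q13 genes, up to 4 of the largest changes past the threshold per list (or the largest difference where none passed), and the 5 genes nearest to ANO1 and to CCND1. CCND3 was added outside this rule. The fit was tested on simulated data. At most 184 probe sets were equal on any pair of arrays. The number of arrays limits the precision. Alternatives were 10 settings and the removal of each array.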

Additional observations from a re-analysis of the deposited data

How the results depend on the processing

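The choice of scaling moved counts most. With hybridization control levelling, 24423 probe sets passed as higher and 827 as lower, members 15 and 3, list genes 53 and 4. With poly-A control levelling these were 38178 and 239, 20 and 0, and 90 and 3. TIGD1 then stood at 0.15 and 0.28, both past the threshold (adjusted p = 0.0433 and 0.00267), and over its other settings did not pass. Equal medians and repeated quantile normalization kept the member counts at 7 and 6. As deposited, 12 list genes passed as higher and 20 as lower. Averaging the probe sets of each gene gave 19 higher, and the fit with trend and robust settings gave 20 higher and 33 lower. Gene-level settings give no count of probe sets. The replicate numbers did not pair the arrays (correlations of deviations -0.01, -0.10 and -0.07). With the replicate number as a block, 3716 and 2746 probe sets passed, 4 members as higher and 4 as lower, and 4 and 10 list genes.

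Leaving out 1 array gave 3700 to 4778 higher and 2976 to 3850 lower probe sets, 3 to 6 and 4 to 6 members, 4 to 10 and 11 to 15 list genes (4 and 13 without shTIGD1 replicate 1, 6 and 13 without replicate 2, 5 and 11 without replicate 3, and 6 higher without shControl replicate 3), and TIGD1 from -0.09 to -0.03. Of 29 named list genes past the threshold, 13 held in all 6 fits. Averaged over probe sets, 7 named list genes left the threshold in the same direction (ANO3, FGFR3, TRADD, PPFIBP1, ARPC4, DLGAP2 and ACACA) and 1 passed newly (MYEOV). With hybridization control levelling 11 left it and 4 passed newly, with poly-A control levelling 2 and 5, and with the replicate number as a block 15 and 0. Genes whose sign turned, such as PPP6R3 when averaged, are not in these counts.

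Signs turned as follows, for values past the threshold as deposited or with that levelling, and the list is not complete. With hybridization control levelling the log2 differences were CCND1 11751330_a_at 0.00354, CTTN 11746740_a_at 0.0227, LRP5 0.18, TNFRSF10A 0.00353, PPFIA3 0.0206, ARPC4 0.0459 and CPT2 0.00423. With poly-A control levelling they were CCND1 11751330_a_at 0.13, CTTN 11746740_a_at 0.15, CTTN 11748448_a_at 0.0812, LRP5 0.30, PPP6R3 0.25, MYEOV 0.20, LTO1 0.12, FGF4 0.20, NADSYN1 0.00921, ANO3 0.10, ANO8 0.0843, TNFRSF10A 0.13, PPFIA3 0.15, PPFIBP1 0.0895, ERC1 0.0238, ARPC4 0.17, SRC 0.11, SHANK3 0.12, HOMER1 0.11, CPT2 0.13 and ACACA 0.11. These settings add 1 value to all probe sets of an array. Averaged over its 4 probe sets, PPP6R3 turned from -0.08 to 0.12 and passed (adjusted p = 0.0339), and the cause was not tested.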
